A study of Bos taurus with 252 samples.

Results

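Enrofloxacin is a fluoroquinolone given to newly received feedlot cattle against bovine respiratory disease. The change in whole blood gene expression from day 0, before the drug was given, to day 7 was compared between 6 steers that received a single subcutaneous dose (ENRO) and 6 untreated steers, the negative controls (NC). It rests on 24 of the 252 libraries of the study, those of days 0 and 7 from these 12 steers. The samples were chosen by their labels, and all 72 ENRO and NC libraries, from 6 sampling days up to day 56, were sequenced on lane 1. The steers were crossbred, and their age was not given in the sources used here. All of them had received tildipirosin, a hormonal implant, parasite treatment, viral vaccines and a Bovilis Vision vaccine. These were given at the start of a backgrounding period before arrival. Each treatment was kept in 1 pen, so drug and pen cannot be told apart. NC cattle were bled first and ENRO cattle second on every day after day 0, so the order of bleeding cannot be told apart from the treatment either. One ENRO steer, Enro5, was scored Bos indicus by eye and no NC steer was.

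Fluoroquinolones act on bacteria by trapping DNA gyrase and topoisomerase IV on cut DNA. The animal relatives of these enzymes are the type II topoisomerases, TOP2A of dividing cells and TOP2B of resting cells, which are far less sensitive to the drug class. Whole blood holds neutrophils, monocytes, T, B and NK lymphocytes, platelets and red cell precursors. An mRNA level in such a sample moves with the number of cells of a type and with the RNA in each cell, and in bulk samples these cannot be told apart.

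The 24 libraries held between 32.3 and 60.3 M counts each (M, mega). The blood label was matched by its markers. The T cell gene CD3E averaged 687 CPM (a count divided by the scaled library total in M counts), the B cell gene CD79A 594 CPM and the neutrophil gene S100A9 914 CPM. Hemoglobin mRNA took 0.0137 to 7.07% of the ENRO libraries and 0.144 to 21.5% of the NC libraries. The highest share was that of steer NC5 on day 7. The change in hemoglobin share from day 0 to day 7 was 1.66 ± 2.69 percentage points in ENRO and 4.09 ± 7.83 in NC (SD, n = 6 and 6; exact permutation test, two-sided, p = 0.641). The change in library total did not pass either (3.43 ± 5.61 M counts in ENRO and 1.98 ± 14.5 M counts in NC, exact permutation p = 0.827).

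Of 19056 genes tested, 1899 differed in their change between ENRO and NC at an FDR of 0.1, a background of 9.97% of genes. The ENRO change was the higher one for 951 of them (4.99%) and the lower one for 948 (4.97%). Counts of list members past the test are to be read beside these shares. The differences were moderate, with a median of 0.51 on the log2 scale for the first set and -0.48 for the second. Of these genes, 68 and 136 differed by more than 1 log2 unit. For the genes with the higher ENRO change, the median change within ENRO was 0.29 and within NC -0.21. For those with the lower ENRO change it was -0.32 and 0.17. Tested within a group, 3435 genes (18%) changed from day 0 to day 7 in ENRO and 1305 (6.85%) in NC. Of the 951 genes, 576 also passed the test within ENRO, 205 within NC and 201 within neither. Of the 948 genes, these counts were 599, 199 and 174.

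The number of genes past the test turned on single steers. Without steer Enro2, 50 genes were past it (0.262% of genes, 11 higher and 39 lower in ENRO), and of all gene lists described here just 3 had members among them, cell cycle (MKI67 and CENPF), immediate early (JUND) and skeletal muscle (TNNI2). Without Enro10 there were 769, without NC5 794, without NC7 828, without Enro5 1138 and without Enro6 3236. Over the genes with the higher ENRO change, the median change of a steer was 0.79 in Enro2 and 0.48 in Enro10, against -0.03 to 0.30 in the other 4 ENRO steers. It was -0.41 to -0.02 in the 6 NC steers. When the model was fitted to the 24 libraries of days 0 and 7 alone, edgeR's test called 0 genes (smallest FDR 0.251), and 2566 had an unadjusted p below 0.05. The fit reported here takes its spread from all 72 libraries. All 1899 genes had the same sign in the fit of 24 libraries. Both fits take the change within a steer from these 24 libraries, so the shared sign is not separate support. Of the 1899 genes, 49 passed the test in all 12 fits with a steer left out. Without Enro2, 0 genes passed at an FDR of 0.05.

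**Figure D1:**
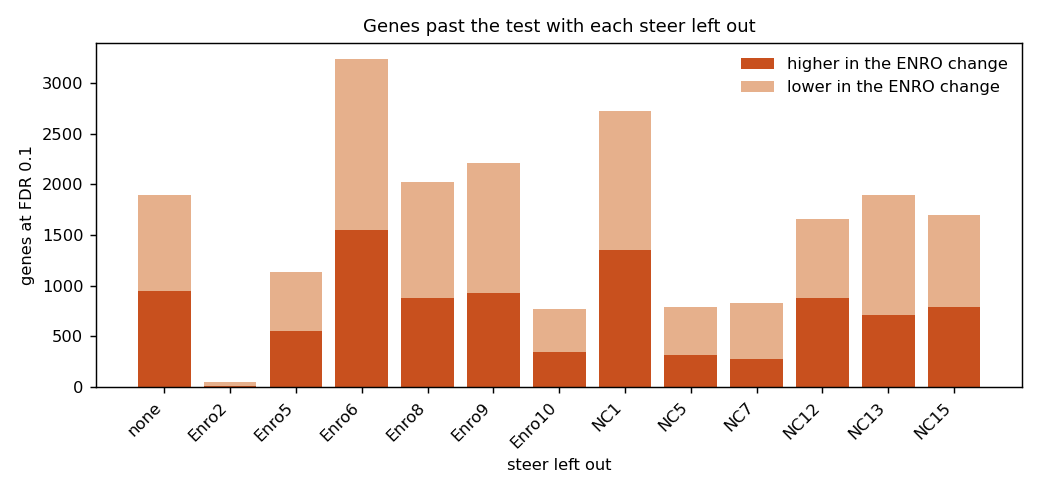
Number of genes past the test of the ENRO against NC change (y axis, genes at an FDR of 0.1) with no steer left out and with each of the 12 steers left out in turn (x axis). Dark bars are genes with the higher change in ENRO and light bars genes with the lower change. The count was 1899 with all steers, 50 without Enro2 and 3236 without Enro6.

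Of 36 cell cycle genes, 8 passed the test and all 8 were higher in the ENRO change. Without Enro2, 2 of the 36 passed, MKI67 and CENPF. The list median was 0.41 with all steers and 0.28 without Enro2, against -0.0040 over all genes tested. On day 0 the list had a median of -0.31 in ENRO against NC. Its differences in change on days 3, 14, 21 and 56 were 0.00095, 0.30, 0.21 and 0.20, and these share the day 0 libraries. MKI67, which encodes the proliferation antigen Ki-67 of dividing cells, lay at 73.2, 136 and 219 CPM in ENRO on day 0 (lowest, median and highest steer) and at 142, 200 and 259 CPM on day 7. In NC it went from 118, 202 and 319 CPM to 61.3, 128 and 193 CPM. It was up in 6 of 6 ENRO steers, by 0.04 to 1.82 log2 units, and down in 5 of 6 NC steers, whose changes ran from -1.53 to 0.27. The groups overlapped only through the highest NC steer. The difference of 1.29 ± 0.25 log2 units (SE, 2.44-fold, FDR = 0.00959) passed the test with each of the 12 steers left out. It was 1.02 without Enro2, where the FDR was 0.092. MKI67 passed within both groups, rising in ENRO by 0.62 (FDR = 0.0132) and decreasing in NC (-0.67, FDR = 0.0222).

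CENPF, a kinetochore protein of mitotic cells, also passed within both groups. Its CPM in ENRO was 12.9, 23.02 and 25.9 on day 0 and 25.2, 26.8 and 46.2 on day 7, while NC fell from 19.997, 32.9 and 43.7 to 13.9, 21.9 and 30.5. On day 7 the NC median lay below the lowest ENRO steer. The difference was 1.05 ± 0.21 (FDR = 0.00959), with a value of 0.74 without Enro2 (FDR = 0.0936). The other cell cycle genes past the test were TOP2A, BUB1B (spindle checkpoint kinase, 0.76), RRM2 (ribonucleotide reductase, 0.76), KIF11 and KIF20A (mitotic kinesins, 0.74 and 0.65) and CCNA2 (cyclin A, 0.64). KIF14, a kinesin of cytokinesis that had the smallest p of all genes, was not on the list and is named after its values were seen. Its changes were -0.21 to 1.62 in ENRO and -1.03 to -0.07 in NC, a difference of 1.14 ± 0.21. The list did not move alike in every steer. Its median change was lowest in Enro10, at -0.45, and highest in Enro2, at 0.71, and in NC it ran from -0.83 to 0.36.

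**Figure D2:**
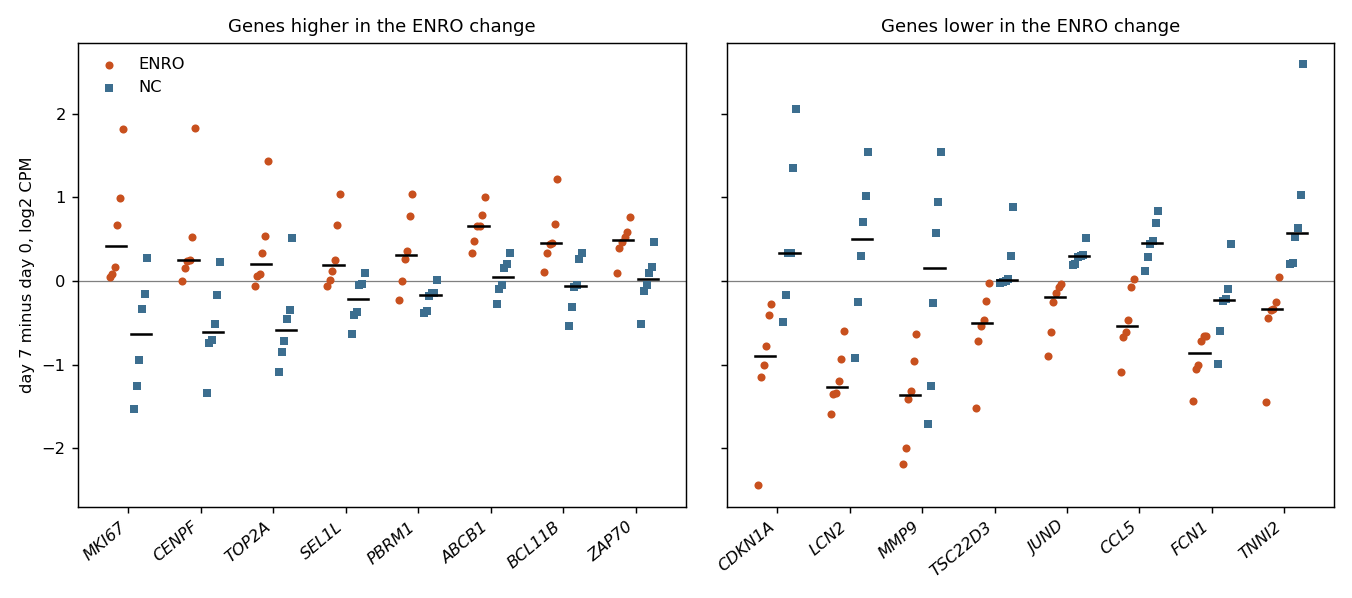
Change from day 0 to day 7 of 16 genes in each steer (y axis, difference of log2 CPM), with ENRO steers as circles, NC steers as squares and a black line at the median of 6 steers. The left panel shows genes whose change was higher in ENRO and the right panel genes whose change was lower. ABCB1, TSC22D3, JUND, CCL5 and TNNI2 had no overlap between the groups, and Enro2 was the most extreme ENRO steer for MKI67, CENPF and CDKN1A.

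The topoisomerase list held 8 genes, of which 1 passed. TOP2A lay at 24.6, 35.5 and 48.1 CPM in ENRO on day 0 and at 38.5, 42.96 and 66.7 CPM on day 7. In NC it went from 35.5, 51.9 and 72.6 CPM to 25.95, 35.2 and 51.9 CPM. Changes were -0.06 to 1.44 in ENRO and -1.09 to 0.51 in NC, so 1 NC steer lay among the ENRO steers. The difference was 0.90 ± 0.24 (FDR = 0.0291), and it missed the threshold without Enro2 (0.64, FDR = 0.214). TOP2B, the form of resting cells, did not pass (0.22 ± 0.09, FDR = 0.129), nor did the type I enzyme TOP1 (0.35 ± 0.15, FDR = 0.168) or TDP1 and TDP2, which clear trapped topoisomerases from DNA (0.28, FDR = 0.131, and 0.06, FDR = 0.877). TOP3A and TOP3B had 0.03 and -0.07.

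Of 31 tested genes of the p53 and DNA damage response, 3 were higher and 5 lower in the ENRO change, and the list median was 0.03. CDKN1A, the cell cycle inhibitor p21, lay at 16.97, 41.9 and 53.2 CPM in ENRO on day 0 and at 9.12, 15.3 and 30.1 CPM on day 7. NC lay at 15.3, 25.5 and 79.8 CPM and then at 12.8, 42.2 and 101 CPM. It was down in 6 of 6 ENRO steers (-2.44 to -0.28), and the NC changes ran from -0.49 to 2.05, with 2 steers down. The difference of -1.64 ± 0.37 (FDR = 0.0117) was -1.40 without Enro2 (FDR = 0.126). The other 4 genes with the lower ENRO change were GADD45G (growth arrest, -1.26), the apoptosis genes BBC3 (-0.71) and BAX (-0.45), and AEN (-0.37). Those with the higher change were the repair genes BRCA2 (0.74) and BRCA1 (0.59), and MDM2 (0.41), which targets p53 for degradation. BRCA2 changed by -0.30 to 1.31 in ENRO and by -0.74 to 0.39 in NC.

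Class I molecules present peptides from inside the cell to CD8+ T cells. Of 19 genes of class I presentation, 1 was higher and 2 were lower in the ENRO change, and the list median was -0.09. ERAP1, which trims peptides in the endoplasmic reticulum (ER), lay at 37.9, 57.5 and 76.8 CPM in ENRO on day 0 and at 52.3, 63.8 and 98.5 CPM on day 7. In NC it lay at 64.5, 82.6 and 99.4 CPM and then at 53.2, 66.2 and 112 CPM. The difference was 0.40 ± 0.12 (FDR = 0.0397), and the changes overlapped. TAPBP, the tapasin that bridges class I molecules to the peptide transporter, spread widely in both groups. It went from 195, 446 and 606 CPM to 41.96, 91.05 and 234 CPM in ENRO and from 36.5, 223 and 490 CPM to 31.9, 401 and 593 CPM in NC. Its difference was -2.49 ± 0.85 (FDR = 0.0696), with 5 of 6 ENRO steers down and 4 of 6 NC steers up. PSME1, a proteasome activator subunit, had -0.29 ± 0.10 (FDR = 0.0847).

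BoLA, the class I gene that set the groups apart on each day, did not pass the test of its change. It lay at 409, 595 and 851 CPM in ENRO on day 0, far above the 22.02, 34.98 and 98.7 CPM of NC, and at 328, 406 and 570 CPM against 14.05, 43.3 and 100.4 CPM on day 7. The groups did not overlap on either day, and the change differed by -0.54 ± 0.30 (FDR = 0.284). The light chain B2M (-0.44, FDR = 0.155), the immunoproteasome subunits PSMB8 (-0.85, FDR = 0.185) and PSMB9 (-0.36, FDR = 0.169) and the transporters TAP1 (-0.19) and TAP2 (0.09) did not pass either. The second class I gene, JSP.1, had the largest error of the list (-0.35 ± 1.84). Reads of class I alleles that are absent from the reference can be split or lost between such genes, so these values are uncertain.

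E3 ubiquitin ligases attach ubiquitin to proteins that are to be cut into peptides. The 9 ligase genes that the study named in its class I pathway on day 7 were chosen by it on these samples, so their direction is not independent evidence. Of the 9, 5 were higher in the ENRO change and none was lower, and the list median was 0.37. RNF111 lay at 26.8, 38.3 and 44.9 CPM in ENRO on day 0 and at 34.6, 42.8 and 53.7 CPM on day 7, and in NC at 34.9, 36.8 and 43.8 CPM and then 20.9, 32.3 and 37.1 CPM. It was up in 5 of 6 ENRO steers and down in 6 of 6 NC steers, a difference of 0.49 ± 0.17 (FDR = 0.0696). RNF6 (0.39), ASB7 (0.34) and TRIP12 (0.25) were also higher. UBR1 (0.39), HERC3 (0.37), KLHL42 (0.24) and CUL1 (0.12) did not pass. None of the 9 passed within ENRO or within NC alone, and none passed without Enro2, where the list median was 0.26.

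**Figure D3:**
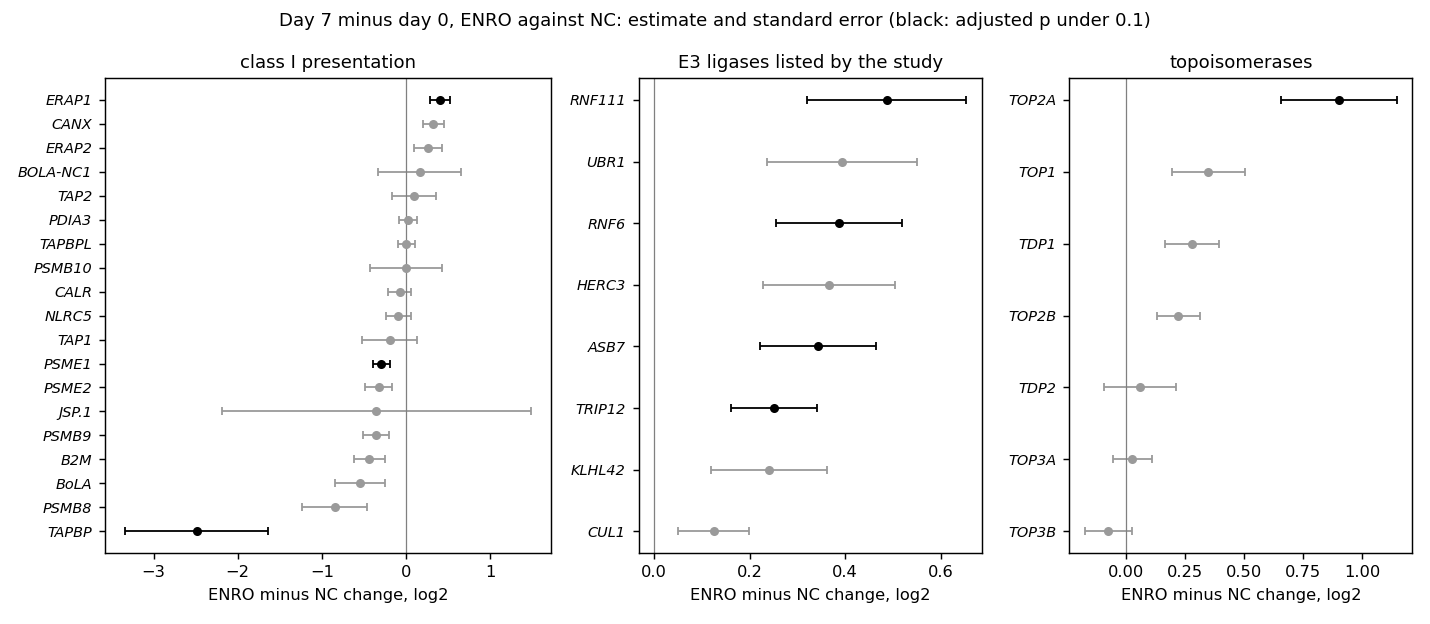
Difference between the ENRO and the NC change from day 0 to day 7 (x axis, log2 scale) for the class I presentation genes (left), 8 of the 9 E3 ligases named by the study (middle) and the topoisomerase genes with a mean of at least 1 CPM (right). Points are estimates, bars are 1 standard error, and black marks genes at an FDR under 0.1. The class I genes lie on both sides of 0, from TAPBP at -2.49 to ERAP1 at 0.40, and the 8 ligases lie above 0. The 3 x axes differ in scale.

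The other lists that the study drew from these samples on day 7 went the same way and carry the same limit. Among 12 ER protein processing genes, 7 were higher in the ENRO change and none was lower. SEL1L, which extracts misfolded proteins from the ER, lay at 53.8, 77.6 and 89.9 CPM in ENRO on day 0 and at 77.6, 87.1 and 119 CPM on day 7. NC lay at 67.1, 74.8 and 90.7 CPM and then at 43.3, 68.98 and 79.99 CPM, and the difference was 0.56 ± 0.15 (FDR = 0.0286). SEC31A, a coat protein of vesicles leaving the ER, had 0.32 ± 0.09 (FDR = 0.0381). Of 17 transcription and chromatin genes, 10 were higher, with a list median of 0.42. They included PBRM1 (0.56), ARID1B (0.46), SMARCA2 (0.46) and ARID1A (0.51), subunits of the SWI/SNF remodeler, BAZ1B (0.42), and the nuclear receptor coactivators NCOA6 (0.67) and NCOA2 (0.64). Of 16 receptor signaling genes, 8 were higher, led by the calcium channel ITPR2 (0.51 ± 0.14, FDR = 0.0321) and the kinase GSK3B (0.32 ± 0.09, FDR = 0.0327). GSK3B changed by -0.08 to 0.53 in ENRO and by -0.31 to -0.10 in NC, with the groups touching at their ends without overlap. Enro2 and Enro10 had the highest medians of the chromatin list, and without Enro2 no gene of these lists passed. None of the 3 prostaglandin genes named by the study for its interaction term passed (0 at an unadjusted p below 0.05), with MGC127133 at 0.58 and PTGDS at -1.72.

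Of 23 tested granule genes of neutrophils, 4 were lower in the ENRO change and none was higher, and none passed without Enro2. The list median was -1.60, and -1.64 without Enro2. By steer, the median change of the list was -2.19 in Enro2, -1.99 in Enro5 and -1.73 in Enro10, but -0.41 in Enro8, 0.01 in Enro6 and 0 in Enro9, and NC ran from -0.39 to 2.14. LCN2, an iron-binding protein of neutrophil granules, lay at 12.9, 31.2 and 37.1 CPM in ENRO on day 0 and at 6.72, 12.8 and 18.8 CPM on day 7. NC lay at 7.70, 14.8 and 43.95 CPM and then at 15.6, 20.3 and 35.7 CPM. LCN2 was down in 6 of 6 ENRO steers (-1.59 to -0.60), and the NC changes of -0.91 to 1.55 overlapped with them in 1 steer. The difference was -1.57 ± 0.39 (FDR = 0.0196) and -1.56 without Enro2 (FDR = 0.126). MMP9, the gelatinase of neutrophil granules, went from 14.9, 21.1 and 31.4 CPM to 6.30, 6.98 and 12.6 CPM in ENRO, a difference from NC of -1.51 ± 0.51 (FDR = 0.0691). The other 2, the cathelicidins CATHL4 and CATHL6, averaged 0.444 and 0.227 CPM, too few counts for a fold change to be read. The elastase ELANE did not pass (-1.05, FDR = 0.176).

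Within ENRO, 11 of the 23 granule genes fell from day 0 to day 7, and 12 of 17 neutrophil receptor and S100 genes did. Within NC, 1 gene of each list fell. Monocyte genes moved with them, as 11 of 19 fell within ENRO and 4 within NC, with median changes of -0.44 and -0.28. Of all 19056 genes tested, 1880 fell within ENRO and 705 within NC. The NC counts of the 2 neutrophil lists were near that NC share. The part of cell numbers in the falls of these lists was not tested. Against NC, 2 of the 17 receptor and S100 genes were lower, among them the oxidase subunit NCF4 (-0.54 ± 0.15, FDR = 0.0303), and none passed without Enro2. S100A9 lay at 773, 1237 and 1932 CPM in ENRO on day 0 and at 269, 466 and 650 CPM on day 7, and was down in 6 of 6 steers, but NC changes spread from -2.76 to 1.46 and the difference of -1.11 did not pass (FDR = 0.146). By edgeR's test BoLA alone differed between the groups on day 0, so no granule gene passed there. The granule list had a median of 1.33 in ENRO above NC on day 0, and its differences in change on days 3, 14, 21 and 56 were -1.38, -1.57, -1.37 and -0.74. These comparisons share the day 0 libraries.

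Of 19 monocyte genes, 1 was higher and 1 lower, with a list median of 0.0034. FCN1, a ficolin of monocytes, went from 510, 887 and 1662 CPM to 323, 418 and 829 CPM in ENRO and from 594, 644 and 761 CPM to 319, 535 and 845 CPM in NC (difference -0.64 ± 0.20, FDR = 0.0455). CCR2, the receptor that draws monocytes into tissue, changed by -0.57 to 0.58 in ENRO and by -0.97 to -0.30 in NC, a difference of 0.64 ± 0.19 (FDR = 0.041). It fell within NC (FDR = 0.0031). Eosinophil and basophil genes had none of 13 past the test (1 at an unadjusted p below 0.05), with the receptor CCR3 at -0.83 (FDR = 0.1003) and FCER1A at -0.57.

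Genes that respond to glucocorticoids, the stress hormones, were lower in the ENRO change for 6 of 18 and higher for none, with a list median of -0.39. TSC22D3, also called GILZ, lay at 1041, 2110 and 2413 CPM in ENRO on day 0 and at 837, 1429 and 1502 CPM on day 7. NC lay at 785, 1123 and 1853 CPM and then at 775, 1524 and 1900 CPM. It was down in 6 of 6 ENRO steers, the changes of the groups did not overlap, and the difference was -0.81 ± 0.23 (FDR = 0.0318). The others were DUSP1 (-1.33), DDIT4 (-1.28), RGS2 (-1.21), CXCR4 (-1.05) and TXNIP (-0.74). On day 0 the list lay 0.19 above NC in ENRO. TXNIP also had no overlap. RGS2 changed by -2.51 in Enro2 and by -0.93 to -0.05 in the other 5 ENRO steers, and without Enro2 no gene of the list passed.

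The immediate early list had 1 of 22 genes past the test, JUND, a subunit of the AP-1 transcription factor. JUND lay at 229, 246 and 372 CPM in ENRO on day 0 and at 168, 215 and 223 CPM on day 7, and in NC at 177, 199 and 331 CPM and then 204, 253 and 411 CPM. It was down in 6 of 6 ENRO steers (-0.90 to -0.04) and up in 6 of 6 NC steers (0.19 to 0.51). The difference of -0.64 ± 0.13 (FDR = 0.00959) passed with each steer left out, at an FDR of 0.092 without Enro2. Of 24 inflammatory genes 2 passed, both lower, near the 9.97% of all genes tested that passed. The chemokine CCL5 changed by -1.08 to 0.03 in ENRO and by 0.11 to 0.84 in NC (-0.99 ± 0.31, FDR = 0.0441), and NFKBIA, the inhibitor of NF-kB, by -1.62 to -0.19 and by -0.14 to 0.93 (-0.77 ± 0.25, FDR = 0.0528). Neither gene overlapped between the groups. Of 18 heat shock genes 3 were lower, namely HSPB1 (-0.52), DNAJB1 (-0.47) and DNAJB6 (-0.32 ± 0.08, FDR = 0.022). The median change of the heat shock list was -0.90 in Enro10 and -0.09 to 0.17 in the other ENRO steers. With 1 steer left out, the list's difference ran from -0.43 to 0.01, and none of its genes passed without Enro2.

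Of 22 T cell genes, 7 rose within ENRO and 7 within NC, and 3 had the higher change in ENRO. Of all 19056 genes tested, 1555 rose within ENRO and 600 within NC. BCL11B, a transcription factor of T cells, lay at 41.3, 54.4 and 108 CPM in ENRO on day 0 and at 56.8, 86.1 and 119 CPM on day 7, and NC at 53.8, 61.7 and 78.8 CPM and then 51.5, 58.96 and 71.4 CPM. The difference was 0.59 ± 0.15 (FDR = 0.0244), with 6 of 6 ENRO steers up. The receptor kinase ZAP70 had 0.45 ± 0.14 (FDR = 0.0403) and LEF1 0.41 ± 0.15 (FDR = 0.0979). The T cell list median was -0.06, so these 3 genes do not speak for the whole list. None of the 8 gamma delta T cell genes passed (1 at an unadjusted p below 0.05). Of them, 5 rose within ENRO and 3 within NC, with WC1-12 at 0.35 and GATA3 at 0.35 between the groups.

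B cell genes had 2 of 19 lower in the ENRO change, the survival receptor TNFRSF13C (-0.71 ± 0.21, FDR = 0.0404) and CD72 (-0.49 ± 0.15, FDR = 0.0464). TNFRSF13C rose in NC, from 23.4, 38.05 and 67.1 CPM to 36.8, 55.2 and 88.5 CPM, and in ENRO it lay at 15.96, 61.7 and 107 CPM and then at 13.6, 56.9 and 87.97 CPM. Among 20 NK and cytotoxic genes, NCR3, an activating receptor, was lower (-0.63 ± 0.16, FDR = 0.0238) and the transcription factor EOMES higher (0.57 ± 0.20, FDR = 0.0696). The counts of the B cell and NK lists were near the 9.97% of all genes tested that passed. Of 15 class II presentation genes, 2 were lower. BOLA-DRA changed by -0.58 to 0.13 in ENRO and by -0.02 to 0.56 in NC (-0.47 ± 0.14, FDR = 0.0385), and BOLA-DRB3 by -0.66 to 0.07 and 0.07 to 0.61 (-0.48 ± 0.14, FDR = 0.0385).

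Cytosolic ribosomal protein genes were lower in the ENRO change for 13 of 84, with a list median of -0.26, and none was higher. Without Enro2 none of the 84 passed, with a list median of -0.34. Within NC 16 of the 84 rose and within ENRO 1 fell. Of all 19056 genes tested, 600 rose within NC and 1880 fell within ENRO. RPS14 lay at 905, 1250 and 2395 CPM in ENRO on day 0 and at 713, 1194 and 1588 CPM on day 7, and in NC at 745, 943 and 1115 CPM and then 1070, 1517 and 3034 CPM. It was up in 6 of 6 NC steers, the changes did not overlap, and the difference was -1.12 ± 0.32 (FDR = 0.0354). The median NC change of the list ran from -0.45 in NC12 to 1.06 in NC5, the steer with the highest hemoglobin share. With the hemoglobin genes left out before scaling, 1879 genes passed over all genes.

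Of 22 drug metabolism and efflux genes, 2 efflux pumps were higher in the ENRO change and none was lower. That count was near the 9.97% of all genes tested that passed. The list median was 0.07. ABCB1, the P-glycoprotein that expels many drugs from cells, lay at 4.25, 5.56 and 10.1 CPM in ENRO on day 0 and at 6.57, 8.96 and 17.4 CPM on day 7, while NC lay at 2.29, 6.06 and 9.11 CPM and then 2.56, 6.23 and 8.53 CPM. It was up in 6 of 6 ENRO steers, by 0.34 to 1.01, and every one of these changes lay above the NC range of -0.27 to 0.33. The difference was 0.62 ± 0.19 (1.53-fold, FDR = 0.0438) and 0.53 without Enro2 (FDR = 0.21). Within ENRO the change passed (0.66, FDR = 0.0005) and in NC it was 0.04. ABCC1, another exporter, was also up in 6 of 6 ENRO steers, with 0.30 ± 0.11 (FDR = 0.0854). The ABCB1 differences on days 3, 14, 21 and 56 were -0.29, 0.21, 0.03 and 0.27.

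**Figure D4:**
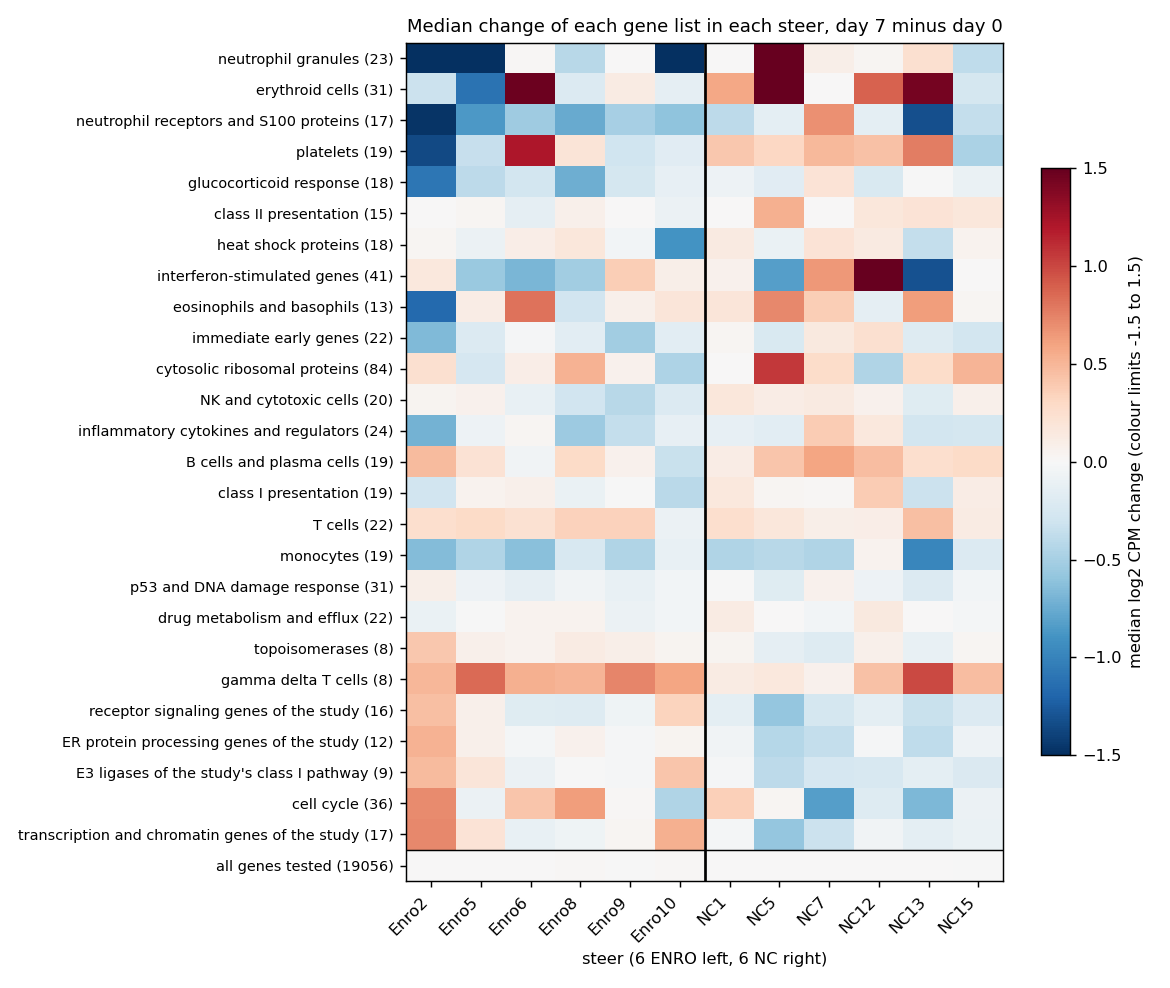
Median change from day 0 to day 7 of each gene list (rows, with the number of genes tested) in each steer (columns, ENRO left of the black line and NC right), as color on a log2 CPM scale that ends at -1.5 and 1.5. Rows are sorted by the list's difference between ENRO and NC, and the last row holds all 19056 genes. The lists of muscle, skin, mitochondrial DNA and prostaglandin genes are not drawn. Enro2 is at an end of the ENRO range for the chromatin, glucocorticoid and platelet lists, and interferon-stimulated genes go from -1.31 to 1.85 among the NC steers.

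Lists of other blood and tissue sources moved unevenly. Of 19 platelet genes, SELP (-1.14) and PF4 (-1.09) were lower in the ENRO change, and the summed level of the list on day 7 ranged from 1536 to 2548 CPM in ENRO and from 1481 to 2840 CPM in NC. Of 31 erythroid genes, GYPC alone was lower (-0.47), with sums of 416 to 73895 CPM in ENRO and 5336 to 311961 CPM in NC. Skeletal muscle genes had 2 of 14 lower, TNNI2 and TNNT3, both of fast troponin. TNNI2 lay at 3.71, 9.25 and 50.6 CPM in ENRO on day 0 and at 1.60, 6.79 and 39.9 CPM on day 7, and rose in 6 of 6 NC steers from 3.12, 4.76 and 6.90 CPM to 3.64, 8.48 and 20.8 CPM. The difference was -1.51 ± 0.32 (FDR = 0.00964). The muscle list summed to 10.6 to 67.9 CPM in ENRO and 19.1 to 482 CPM in NC on day 7, with the highest sum in NC15. None of 15 skin and hair genes passed (0 at an unadjusted p below 0.05), and their sums did not exceed 37.5 CPM. The part of these sources in other results was not tested. None of 41 interferon-stimulated genes passed (3 at an unadjusted p below 0.05), and the list median of a steer ran from -1.31 to 1.85 in NC. IFI44, an interferon-induced gene, changed by 0.16 to 4.51 in NC and by -0.92 to 2.23 in ENRO (-2.44 ± 0.97, FDR = 0.122). None of the 13 genes of mitochondrial DNA passed (0 at an unadjusted p below 0.05).

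Several of the 30 genes with the largest fitted differences and a mean of at least 1 CPM were expressed in a few steers only, and their fitted values depend on the prior count. IGLL1, an immunoglobulin lambda-like chain, had the largest fall (-11.4 ± 3.35, FDR = 0.038). It lay at 0.413, 3.32 and 190 CPM in ENRO on day 0, at 0 in 5 of 6 ENRO steers on day 7, and at 0, 2.72 and 4.71 CPM in NC on day 7. LOC112441542 had the largest rise (9.38), which came from 2 NC steers that went from 65.9 and 51.1 CPM to 0 CPM, while 5 of 6 ENRO steers were at or near 0 on both days. LOC534155 (-4.25) was at 0 on both days in 4 of 6 ENRO and 2 of 6 NC steers, and the value rests on Enro5 and Enro10, which went from 17.7 and 17.2 CPM to 0.867 and 1.36 CPM. Better measured members of this set were ETS1, a lymphocyte transcription factor, and NEIL2, a DNA glycosylase of base excision repair. ETS1 went from 39.4, 67.9 and 170 CPM to 61.9, 139 and 389 CPM in ENRO and from 114, 191 and 224 CPM to 22.9, 103 and 184 CPM in NC, a difference of 1.88 ± 0.47 (FDR = 0.0205). It was up in 5 of 6 ENRO steers and down in 6 of 6 NC steers. NEIL2 was up in 6 of 6 ENRO steers, from 6.29, 16.7 and 36.4 CPM to 22.1, 46.1 and 59.5 CPM (1.26 ± 0.42, FDR = 0.0652). ADAM8, a protease of leukocytes, went from 19.9, 25.4 and 89.4 CPM to 11.1, 13.4 and 17.1 CPM in ENRO (-1.95 ± 0.64, FDR = 0.0611). The remaining rises ran from LOC101904526 at 1.204 to GDPGP1 at 3.30, with MAP3K21, PLPP3, FMNL2 and ATRIP, the partner of the DNA damage kinase ATR (2.24), between them. The remaining falls ran from NDUFB9, a subunit of respiratory complex I, at -1.92 to VSIG10 at -9.14, with ESCO1, a cohesin acetyltransferase (-3.76), and MAVS, an adapter of viral RNA sensing (-3.25), between them.

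The changes of all 6 ENRO steers lay above those of all 6 NC steers for 68 genes (0.357% of genes) and below them for 65 (0.341%). Of these, 54 and 59 also passed the test. The 49 genes that passed with each steer left out were 10 with the higher and 39 with the lower ENRO change, and 13 of them had no overlap between the groups. They were chosen after their values were seen, and without Enro2 none of them passed at an FDR of 0.05. Besides KIF14, MKI67 and CENPF, the higher ones included SMC1A, a cohesin subunit (0.55 ± 0.11), CEP192, which builds centrosomes (0.70 ± 0.14), and MTBP, which takes part in the start of DNA replication (1.07 ± 0.21). The lower ones included TMBIM6, an inhibitor of cell death in the ER membrane, at 953, 1167 and 1313 CPM in ENRO on day 0 and 762, 898 and 995 CPM on day 7 (-0.48 ± 0.09, FDR = 0.00959), JUND, TNNI2, and SLC16A3, the lactate exporter MCT4 (-0.93 ± 0.20).

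Days other than 7 gave no gene past the test. In the same edgeR fit, 0 genes passed on each of days 3, 14, 21 and 56, where 1195, 1098, 1365 and 1027 genes had an unadjusted p below 0.05. For the 951 genes with the higher ENRO change on day 7, the median differences on these 4 days were -0.11, 0.23, 0.22 and 0.17, and for the 948 with the lower change they were 0.06, -0.21, -0.26 and -0.18. These values share the day 0 libraries with day 7. The 2 sets were picked by a change that uses the day 0 libraries, so an opposite offset on day 0 is partly built in. Over all genes tested, the median day 0 difference was 0.0039. The median level of the first set was below NC in ENRO on day 0 (-0.14) and above it on day 7 (0.32), and that of the second set was above NC on day 0 (0.20) and below it on day 7 (-0.31). Without the baseline, ENRO and NC differed on day 7 in 3 genes (0.0157%), BoLA (3.08), LOC112444559 (1.60) and RNF150 (0.67), and on day 0 in 1 gene (0.00525%), BoLA (3.69). An unadjusted p below 0.05 was found for 2762 genes on day 7 and for 1058 on day 0. For MKI67 the medians were 136 CPM in ENRO and 202 CPM in NC on day 0, 111 and 171 on day 3, 200 and 128 on day 7 and 132 and 114 on day 14. SEL1L was below NC in ENRO on day 3 (difference in change -0.29) and above it on day 7.

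**Figure D5:**
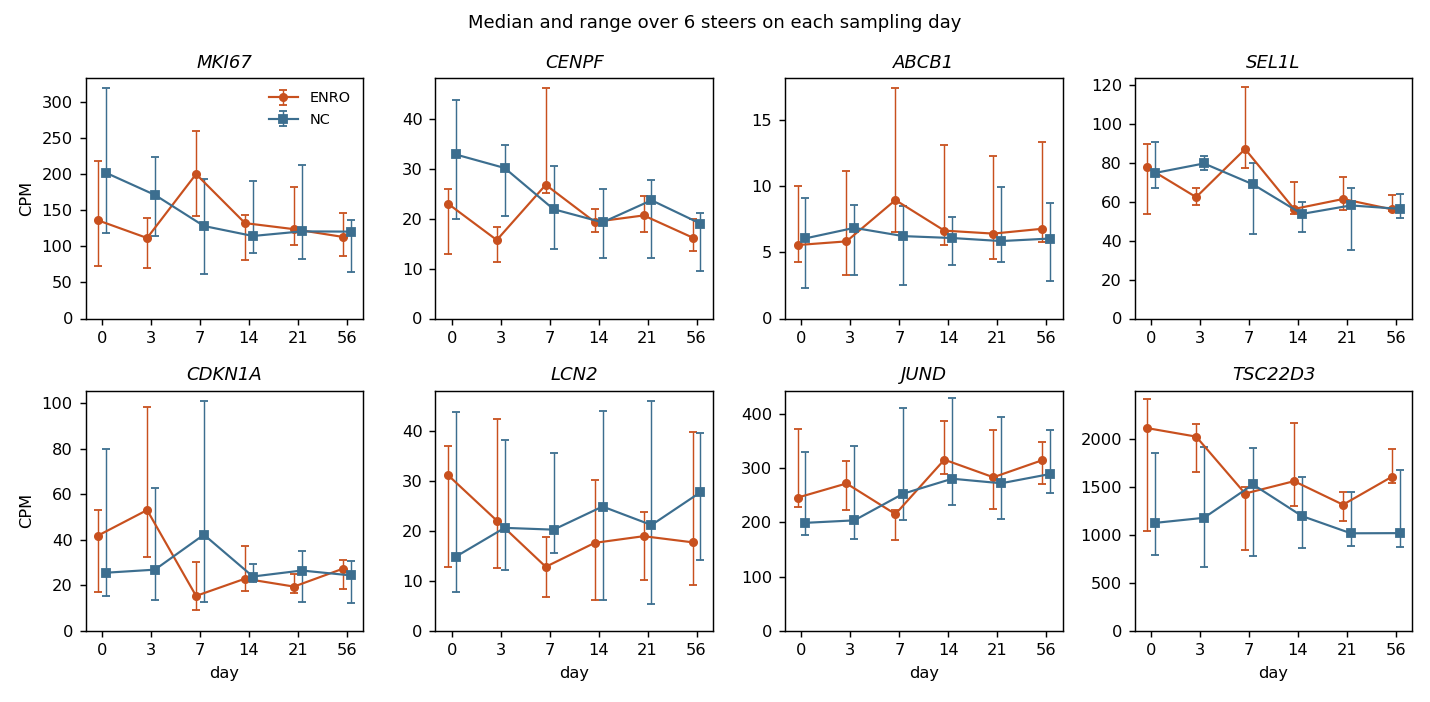
Level of 8 genes (y axis, CPM from 0) on the 6 sampling days (x axis, days not to scale) in ENRO (circles) and NC (squares). Points are medians of 6 steers and bars span the lowest to the highest steer. MKI67 and CENPF lay below NC in ENRO on days 0 and 3 and above it on day 7. The TSC22D3 median was higher in ENRO on days 0, 3, 14, 21 and 56, at 2110 and 1123 CPM on day 0. On day 7 it was close to NC, at 1429 and 1524 CPM.

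The ENRO change was also set against the mean change of the 5 other treated groups, which do not include NC. Their libraries were on lanes 2 and 3, except those of 2 florfenicol steers on lane 1, so lane and treatment cannot be told apart among the other steers, although all libraries of a steer shared a lane. There 3692 genes (19.4%) differed, 1693 higher in ENRO (8.88%) and 1999 lower (10.5%). Without Enro2 the count was 1193 and without Enro10 it was 1766. The change of each other treatment against NC was tested by edgeR in the fit of all groups, not in that of 72 libraries. It passed for 4 genes in ceftiofur, 0 in florfenicol, 1 in oxytetracycline, 3 in tildipirosin and 0 in tulathromycin. There 1861, 1074, 1506, 1498 and 883 genes had an unadjusted p below 0.05 by edgeR's test. ENRO against NC was not tested in the fit of all groups, so these counts cannot be set directly against 1899. The comparisons of ENRO share the ENRO libraries, so their values are given side by side only. Against the other treated groups, MKI67 had 0.88 (FDR = 0.00677), CENPF 0.75 (FDR = 0.0109), SEL1L 0.57 (FDR = 0.000164), PBRM1 0.55 (FDR = 0.000578), ABCB1 0.54 (FDR = 0.0311), JUND -0.51 (FDR = 0.000918) and LCN2 -0.95 (FDR = 0.00327). CDKN1A (-0.38, FDR = 0.433), TSC22D3 (-0.10, FDR = 0.789) and TAPBP (-1.49, FDR = 0.159) did not pass against them. By list, 15 of the 17 chromatin genes were higher in ENRO there, 14 of the 16 receptor signaling genes were higher and 1 lower. The study drew these 2 lists, and those of SEL1L and PBRM1, with the same ENRO libraries of day 7. Their direction is therefore not independent evidence here either. Of the 23 granule genes, 9 were lower. Cell cycle genes gave 3 higher and 1 lower, and glucocorticoid genes 2 higher and 1 lower. Ribosomal protein genes were lower in ENRO for 30 of 84.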

How the data were processed

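Whole blood in RNA-stabilizing tubes was sequenced as stranded mRNA libraries (paired reads of 150 bases). The authors trimmed reads with Trimmomatic 0.39, mapped them to ARS-UCD1.3 with HISAT2, and assembled transcripts with StringTie 2.2.0. The deposited values are expected counts: the authors derived them from transcript coverage with prepDE.py3, so they are whole-number estimates of reads per gene, neither normalized nor adjusted for lane. Coordinates and annotation were not used here.

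A gene was tested when its CPM exceeded 0.2 in at least 12 of the 252 libraries, which kept 19056 of 33282 genes. The 72 ENRO and NC libraries were scaled by TMM and fitted with edgeR 4.0.16 (quasi-likelihood test, steer as fixed block, treatment by day terms). The day 7 term is the reported difference, with Benjamini-Hochberg adjustment over all genes tested and an FDR of 0.1. The same-steer libraries of days 0 and 7 deviated together (correlation of deviations from group means 0.192 to 0.467, above 0.1 in 12 of 12 steers). No 2 libraries were duplicates (highest correlation of log2 CPM 0.979). Per-steer changes are differences of log2 CPM with a prior count of 2. The fit with all groups reused the trended dispersion of the 72 libraries. Steers are the replicates. Named genes were the 15 largest rises and 15 largest falls past the test with a mean CPM of at least 1, BoLA, all class I presentation, ligase and topoisomerase genes with a mean CPM of at least 1, and the 2 genes of smallest p in every other list. Of the genes past the test in the lists, 2 are not reported here. Other genes named were chosen after their values were seen. The comparison, gene lists and tests were chosen with earlier results of these data known. Alternatives used limma 3.58.1 and DESeq2 1.42.0. Permutation tests were exact (scipy 1.17.1).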

Additional observations from a re-analysis of the deposited data

Results flagged for a closer look

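Among 238 groups of 6 steers that were examined, 23 held 1 steer set apart from the other 5, and chance marks about 1 in 20 such groups. Enro2 was the steer apart in ENRO for 7 genes, with changes from day 0 to day 7 of 1.83 in CENPF, 0.72 in BAZ1B, 0.85 in EOMES, 0.58 in TRIP12, -1.62 in NFKBIA, -2.51 in RGS2 and -1.45 in TNNI2. Enro10 was apart for DNAJB1 (-1.08), LOC101906138 (-3.27) and TNFRSF13C (-0.97), Enro6 for MGC127133 (5.41), Enro8 for IFI44 (2.23) and Enro9 for TAP2 (0.96). In NC, the steer apart was NC5 for GYPC (0.90), HERC3 (-0.76), LOC101904526 (-2.02) and RNF111 (-0.74), NC1 for CD72 (0.061) and PLPP3 (0.54), NC7 for NFKBIA (0.93) and TSC22D3 (0.89), and NC15 for TNNI2 (2.60). On day 7 hemoglobin mRNA took 21.5% of the counts of NC5.

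The ENRO change differed from the mean change of the other 5 treated groups in 3692 genes by the contrast of their day 7 terms. The count was 1193 without Enro2 and 1766 without Enro10.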

How the results depend on the processing

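Same-steer libraries deviated together, so the fits carry the steer as a replicate block. Without the replicate block 0 genes passed for the ENRO against NC change, 680 for the ENRO change and 44 for the NC change. With the 24 libraries of days 0 and 7 alone these counts were 0, 1024 and 66. At an FDR of 0.05 they were 1007 for the difference and 721 for NC. Leaving out 1 steer gave 50 (without Enro2) to 3236 (without Enro6) genes for the difference, 1315 to 4258 for ENRO and 449 to 1914 for NC. Leaving out Enro2 and Enro10, or Enro2 and NC5, gave 0 genes. These 2 settings and a voom fit with library weights were chosen after seeing the data. Within day 7, 1 gene passed at an FDR of 0.05, 28 by the likelihood ratio test and 1024 by DESeq2, and 1 to 5 with a steer left out. Within day 0 the counts were 20, 49 and 1 to 2. Against the other 5 treated groups 1193 genes passed without Enro2 and 1766 without Enro10, and leaving out the other 4 ENRO steers was not run. The cause of these shifts was not tested, nor was the part of the smaller number of libraries in some of these fits. Other scalings, filters and tools gave 1410 to 2846 genes for the difference. Of 77 named genes past the test, 75 passed with DESeq2, 46 with voom, 35 without NC7 or without Enro10 and 5 without Enro2, and none turned its direction. The design has 6 steers a group, 1 pen a treatment, and genes under about 1 CPM rest on few counts.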
